A study of Homo sapiens with 12 samples.

Results

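The effect of camptothecin (CPT), an inhibitor of DNA topoisomerase 1 (TOP1), on the transcriptome of HCT116 wild-type (WT) cells was measured in 4 of the 12 RNA-seq libraries of the series. HCT116 is an established human colon cancer cell line. The 4 libraries form 2 pairs that differ in CPT: WT cells without TNFα, either without inhibitor or with 5 µM CPT for 2 h, and WT cells given 20 ng/ml TNFα for 1 h, again without inhibitor or with CPT. The cells of the second CPT library were incubated with the compound for 2 h before TNFα was added, so they may have been exposed to it for longer than those of the first. The labels do not say whether the cells without inhibitor received the solvent of the compound. Every condition was sequenced from 1 sample, no library was replicated, and the labels name no separate cultures. The labels and methods name no spiked-in standard, so all values are relative to the other RNAs of the same library, and a change in the total amount of RNA cannot be seen.

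The 4 libraries held between 17115637 and 22051046 reads counted in 26364 genes, of which 19855 had a read in at least 1 of them. Of 10 epithelial markers, the summed level ranged from 3630 to 4130 CPM (reads of a gene per 1000000 counted reads, with TMM factors where a single gene is given) across the 4 libraries. Of the markers of mature intestinal cells, *CDX1* was at 0 in all of them, and *VIL1* and *LGALS4* had at most 2 reads in any. In contrast, *KRT20* had 24 to 37 reads and the intestinal transcription factor *CDX2* had 214 to 526 reads. Summed levels of 6 mesenchymal markers stayed between 7.01 and 11.3 CPM, those of 5 blood cell markers between 0.223 and 0.658 CPM, and those of 3 endothelial markers between 0.292 and 1.09 CPM.

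TOP1 relaxes the supercoils that build up in front of and behind a moving RNA polymerase by cutting and rejoining 1 DNA strand. CPT binds the enzyme while it is linked to the cut DNA and slows the rejoining, so that the enzyme stays trapped on the DNA. It is known to slow the elongation of transcripts and, in cells that replicate their DNA, to turn nicks into DNA breaks. Such breaks activate the checkpoint kinases, and CPT derivatives are used against colon cancer.

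To describe which genes were higher or lower in CPT-treated cells irrespective of TNFα, both pairs were fitted together with the TNFα condition as a block (edgeR quasi-likelihood test, Benjamini-Hochberg adjusted p under 0.05). A gene is called raised or lowered here when it passed this test. Of 14125 genes tested, 2439 (17.3%) were raised, 3408 (24.1%) were lowered and 8278 were not called. Most calls were small: 1353 of the raised and 1790 of the lowered genes had a fold change under 1.5, and the median log2 fold change was 0.45 among raised and -0.56 among lowered genes, beside 0.01 over all genes tested. Nearly all called genes moved the same way in both pairs, 2431 of the raised and 3392 of the lowered ones, and 24 had opposite signs. The spread was estimated from a trend over all genes and 1 residual degree of freedom, with no weight on the disagreement of a single gene, so the standard errors (SE) of this fit do not contain it, and the values of both pairs are given beside the fitted ones. DESeq2 on the same 4 libraries called 644 genes raised and 1864 lowered, all of them also called by edgeR. Without the library that had neither inhibitor nor TNFα, 1571 genes were raised.

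Counted directly, with no test, 594 genes (4.21% of those tested) were more than 2-fold higher with CPT in each pair, and 567 (4.01%) were more than 2-fold lower. Changes over 4-fold in each pair were seen for 208 genes in the upward and 91 in the downward direction. These groups differed in level, in CPM not divided by length: the median gene that was over 2-fold higher had a mean of 1.22 CPM across the 4 libraries, the median gene that was over 2-fold lower had 17.9 CPM, and the median of all genes tested was 25.3 CPM. The filter on low counts asked for about 0.53 CPM in at least a pair of libraries, and 413 genes passed it only through the CPT libraries. Such genes had to be higher with CPT, and they make up 343 of the raised genes and 303 of those over 2-fold higher in both pairs. Leaving them out, 2096 raised genes and 291 genes over 2-fold higher in both pairs remained. A further 114 genes passed only through the libraries without inhibitor, of which 85 were lowered. The other 13598 genes reached the cutoff in both states of the inhibitor, that is in some library with CPT and in some library without. Of these, 15.4% were raised and 24.4% lowered. Genes that reached it in a single library of a state could still pass with the help of the other state. The bias of the filter is therefore not removed in this set. Across 10565 genes with a mean of at least 100 reads, the log2 ratios of the pairs had a Pearson correlation of 0.91 and a Spearman correlation of 0.79, given as a description across genes, which are not independent replicates.

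**Figure D1:**
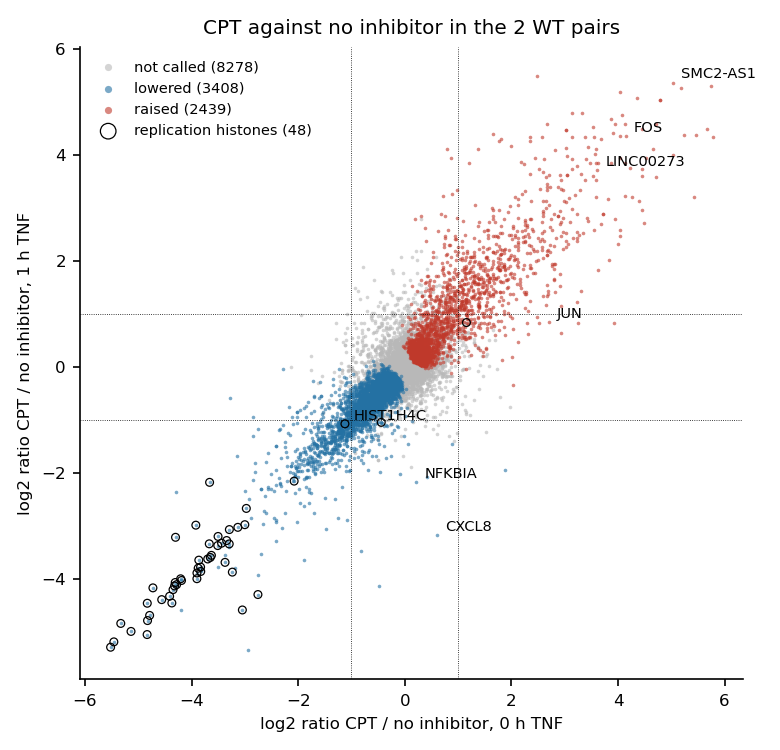
Log2 ratio of normalised counts (CPT over no inhibitor) in the pair without TNFα on the x axis and in the pair with 1 h TNFα on the y axis. Each point is 1 of the 14125 genes tested, coloured as raised (2439), lowered (3408) or not called (8278), and dotted lines mark 2-fold changes. Most called genes lie near the diagonal, with replication histones (circles) at the lower left, *FOS* at the upper right, and *CXCL8* and *NFKBIA* below the diagonal.

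Of the 39 gene lists examined, the replication-dependent histone genes had the lowest median. These genes supply the core and linker histones for newly made DNA. Their transcripts end in a stem-loop in place of a poly(A) tail and are known to be made during S phase and degraded quickly when DNA synthesis stops. Of 73 such genes, 48 were tested, 47 were lowered and none was raised, and 46 were more than 2-fold lower in both pairs. Of the 48, 7 passed the filter only through the libraries without inhibitor and so had to be lower, and 1 only through the CPT libraries. The other 40 were all lowered, with a median of -3.87. The median log2 fold change over the 48 genes was -3.87, with quartiles of -4.39 and -3.41, and it was -3.85 in the pair without and -3.82 in the pair with TNFα. DESeq2 called 46 of them lowered. Of the remaining genes, which were not tested, 11 had no read in any of the 4 libraries. Bulk RNA cannot tell fewer cells in S phase from less histone RNA per cell.

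Promoters of histone genes that fell strongly and weakly are shown to compare their elements. The sequences are RefSeq windows of assembly GRCh38.p14 that run from 250 bases before to 50 bases after the annotated start, in the direction of transcription. Capitals mark matches, on either strand, to TATAAA, to CCAAT, to the octamer ATTTGCAT found in H2B promoters, and to GGANTTTCC, a form of the NF-kB site that is used for *NFKBIA* further on. The first window belongs to *HIST1H2BM* (chr6:27814772-27815071, + strand), which had the second lowest fitted value of the genes with a mean of at least 20 reads, the second to *HIST1H3H* (chr6:27809801-27810100, + strand), also lowered strongly, and the third to *HIST1H3E* (chr6:26223928-26224227, + strand), the least lowered histone gene.
HIST1H2BM: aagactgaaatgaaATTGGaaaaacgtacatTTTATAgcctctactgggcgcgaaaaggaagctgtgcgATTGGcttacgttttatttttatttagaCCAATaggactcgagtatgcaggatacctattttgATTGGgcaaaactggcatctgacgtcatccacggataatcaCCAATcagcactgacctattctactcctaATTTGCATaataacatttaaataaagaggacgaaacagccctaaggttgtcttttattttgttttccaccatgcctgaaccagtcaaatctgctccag
HIST1H3H: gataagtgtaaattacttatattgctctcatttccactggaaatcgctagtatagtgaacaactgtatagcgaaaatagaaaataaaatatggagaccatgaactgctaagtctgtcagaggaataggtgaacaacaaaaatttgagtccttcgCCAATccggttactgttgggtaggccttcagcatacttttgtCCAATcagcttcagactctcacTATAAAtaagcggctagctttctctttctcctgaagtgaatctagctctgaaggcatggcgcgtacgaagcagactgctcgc
HIST1H3E: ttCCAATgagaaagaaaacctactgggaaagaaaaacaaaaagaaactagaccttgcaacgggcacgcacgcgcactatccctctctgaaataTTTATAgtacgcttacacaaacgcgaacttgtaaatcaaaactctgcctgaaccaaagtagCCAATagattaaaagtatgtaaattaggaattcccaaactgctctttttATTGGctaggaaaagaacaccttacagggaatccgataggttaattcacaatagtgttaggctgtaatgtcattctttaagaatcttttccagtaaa
The *HIST1H2BM* window held 1 TATA match, 5 CCAAT matches and 1 octamer, that of *HIST1H3H* held 1 TATA and 2 CCAAT matches, and that of *HIST1H3E* held 1 TATA and 3 CCAAT matches. Of the 39 tested histone genes with an entry in the table, 27 (69.2%) held TATAAA, 34 (87.2%) held CCAAT and 17 (43.6%) held the octamer, whereas these letters occurred in 12%, 35.7% and 1.8% of all 27305 promoter windows. Their median GC content was 42.7%, beside 58.3% over all windows. These matches describe the windows and say nothing on the use of the motifs in these cells.

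*HIST1H3J* (chr6:27858093-27858570, hg19, - strand), which encodes a histone H3, had 9716 reads without inhibitor and 168 with CPT in the absence of TNFα. With TNFα it had 7719 reads without inhibitor and 224 with CPT. The log2 fold change of this gene was -5.40 ± 0.092 (SE, 2 pairs), the lowest of all called genes with a mean of at least 20 reads. *HIST1H2BM*, an H2B gene, had 5233 and 94 reads in the pair without TNFα and 4289 and 133 in the pair with TNFα, a log2 fold change of -5.32 ± 0.10. In both genes each CPT library was far below either library without inhibitor, with or without TNFα.

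Members of all 5 histone classes fell. The median log2 fold change was -4.22 over 3 H1 genes, -3.89 over 13 H2A genes, -4.40 over 16 H2B genes, -4.12 over 9 H3 genes and -3.32 over 7 H4 genes. The linker histone gene *HIST1H1E* showed the largest loss in CPM of any gene, from 1641 to 82.2 CPM without and from 1647 to 94.2 CPM with TNFα. Summed over the family, histone genes took 15577 CPM of raw reads without inhibitor and 1224 with CPT in cells without TNFα, and 15544 and 1321 in cells with TNFα. Hence the share of histone reads dropped by more than 10-fold in each pair, well beyond the difference of the 2 libraries without inhibitor.

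A few family members stood apart from the rest. *HIST1H4C*, an H4 gene, retained 5301 of 14483 reads without TNFα and 6481 of 11974 reads with TNFα, a log2 fold change of -1.09 ± 0.064. *HIST4H4* changed by -2.11 ± 0.091 and *HIST1H3E* by -0.73 ± 0.16 on the log2 scale. *HIST2H2BC* was not called, with 5 and 10 reads in the pair without and 5 and 11 reads in the pair with TNFα. Many of these genes are nearly identical in their coding parts, and only uniquely mapping reads were counted, so the division of reads between single members is uncertain while the family total is less affected.

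Replication-independent histone variants, which are made from polyadenylated transcripts outside S phase as well, did not follow this pattern. Of 11 tested variants, 5 were raised and 2 were lowered. *H2AFJ*, an H2A variant, had a log2 fold change of 1.09 ± 0.11, the linker variant *H1F0* of 0.35 ± 0.073 and the variant *H2AFZ* of 0.22 ± 0.063. The centromeric variant *CENPA* fell by 0.57 ± 0.11 and *H2AFX*, the variant that is phosphorylated at DNA breaks, by 0.30 ± 0.066 on the log2 scale. No variant differed by more than 2-fold in both pairs.

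Genes for zinc finger proteins were the next large group with lower values. Most of them encode repressors of the KRAB type, many of which lie in clusters on chromosome 19. Of 266 zinc finger genes on chromosome 19, 157 were tested, 122 (77.7%) were lowered, 7 (4.46%) were raised and 28 were not called. Their median log2 fold change was -0.92, and 58 of the 157 (36.9%) were more than 2-fold lower in both pairs, beside 4.01% of all genes tested. The zinc finger genes of the other chromosomes behaved similarly, with 161 of 239 (67.4%) lowered, 12 raised and a median of -0.61. DESeq2 called 84 genes of the first and 114 of the second group lowered.

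*ZNF627*, a zinc finger gene of chromosome 19, had 498 and 66 reads in the pair without and 346 and 79 in the pair with TNFα, a log2 fold change of -2.45 ± 0.14. *ZNF217*, which encodes a transcription factor amplified in several carcinomas, changed by -2.06 ± 0.089, from 82.4 to 19.8 CPM without and from 86.1 to 20.7 CPM with TNFα. Among the few raised members, *ZNF599* rose from 5 to 16 and from 8 to 26 reads, and *ZFP3* from 3 to 30 and from 1 to 29 reads. Both passed the filter only through the CPT libraries. Of the raised members, 6 on chromosome 19 and 10 on other chromosomes reached its cutoff in both states of the inhibitor. *ZNF703*, a factor of luminal breast cells, went from 34 to 121 and from 26 to 164 reads. The promoter windows of 138 tested chromosome 19 members held TATAAA in 2.17% and CCAAT in 52.2% of cases.

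Regulators of chromatin fell as well. Of 63 tested genes, 42 (66.7%) were lowered and 2 (3.17%) were raised, with a median log2 fold change of -0.48. Over all genes tested, 24.1% were lowered and 17.3% raised. The DNA dioxygenases *TET3* and *TET2* fell by 1.52 ± 0.098 and 1.33 ± 0.11 on the log2 scale, and the chromodomain remodellers *CHD2* and *CHD1* by 1.24 ± 0.076 and 1.18 ± 0.073. Each of these 4 genes was lower in both CPT libraries than in either library without inhibitor. The raised members were *HDAC1*, a histone deacetylase, with a log2 fold change of 0.25 ± 0.066, and *KDM6B*, a histone H3 lysine demethylase, with 0.36 ± 0.13.

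Transcripts of short-lived regulators of growth signalling were mostly lowered. Of 9 tested DUSP genes, which encode phosphatases of MAP kinases, 7 (77.8%) were lowered and 1 (11.1%) was raised, with a median of -0.78. *DUSP5*, the phosphatase of nuclear ERK, had 6648 and 994 reads in the pair without and 7874 and 1209 in the pair with TNFα, a log2 fold change of -2.65 ± 0.076. *DUSP1*, an immediate early member, was the exception with 1.08 ± 0.097. Of 9 tested SPRY, SPRED and ETV feedback genes of the ERK pathway, 5 (55.6%) fell and 1 (11.1%) rose, with a median of -0.56. The inhibitor *SPRY4* changed by -1.46 ± 0.085 on the log2 scale.

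Feedback genes of other growth pathways showed mixed values. Of 9 tested ID and SMAD genes, 5 (55.6%) were lowered and 2 (22.2%) raised, with a median of -0.20. *SMAD7*, the inhibitor of TGFβ receptors, fell by 2.14 ± 0.17 and the homeodomain repressor *TGIF1* by 2.28 ± 0.087, whereas *ID3*, an inhibitor of basic helix-loop-helix factors, had a log2 fold change of 0.40 ± 0.082. Of 6 tested genes that encode EGFR ligands or *ERRFI1*, the feedback inhibitor of the receptor, 4 (66.7%) were lowered and 1 (16.7%) was raised. Their median was -0.31. *ERRFI1* fell from 931 to 400.5 CPM without and from 1041 to 395 CPM with TNFα, while the ligand *HBEGF* rose from 18.7 to 37.7 and from 19.2 to 37.97 CPM. Of 13 tested KLF factors, a family of zinc finger transcription factors, 8 (61.5%) fell and 4 (30.8%) rose, with a median of -0.40. *KLF10*, *KLF5*, *KLF3* and *KLF6* had log2 fold changes between -1.30 and -1.15.

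Among 9 tested Wnt targets, 5 (55.6%) were lowered and 1 (11.1%) was raised, with a median of -0.70. HCT116 cells carry a stabilised form of the Wnt effector β-catenin. *MYC*, a central growth regulator, had 19405 and 2095 reads in the pair without and 17390 and 2739 reads in the pair with TNFα, a log2 fold change of -2.87 ± 0.067. *DKK1*, a secreted Wnt antagonist, fell by 2.67 ± 0.070 and the feedback inhibitor *AXIN2* by 1.58 ± 0.18. *CCND1*, which encodes cyclin D1, was not called, with a log2 fold change of -0.06 ± 0.058. Thus *MYC* and *DKK1* were more than 6-fold lower in both pairs, whereas cyclin D1 transcripts were at 891 to 949.6 CPM in all 4 libraries.

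**Figure D2:**
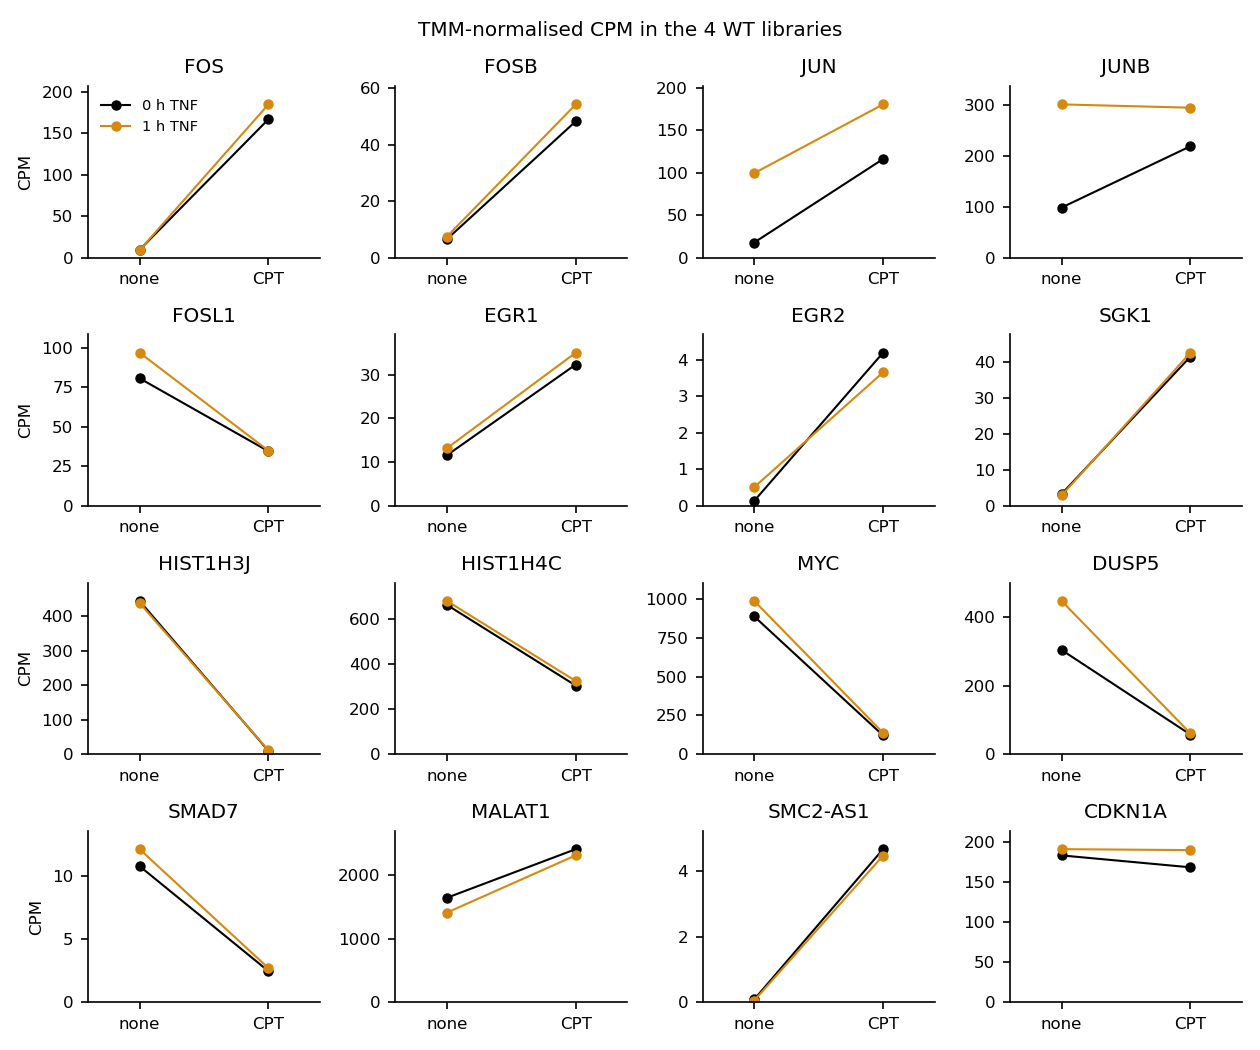
Normalised counts (CPM, linear axes from 0) of 16 genes in the 4 WT libraries, each point 1 library and each line 1 pair, black without and orange with 1 h TNFα. CPT libraries lie far below those without inhibitor for *HIST1H3J*, *MYC* and *DUSP5*, far above for *FOS* and *SGK1*, and close to them for *CDKN1A*.

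The *FOS* and *JUN* family, whose products dimerise to the transcription factor AP-1, split into raised and lowered members. The 7 genes were all called, 4 raised and 3 lowered. *FOS* (chr14:75745481-75748937, hg19, + strand) had 205 and 2900 reads in the pair without TNFα, and 157 and 3683 reads in the pair with TNFα. Its log2 fold change was 4.25 ± 0.094, with log2 ratios of 4.14 and 4.36 in the pairs. *FOSB* rose from 143 to 842 and from 131 to 1085 reads, a log2 fold change of 2.88 ± 0.12. Both genes were thus low without inhibitor, irrespective of TNFα, and high in both CPT libraries.

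The promoters of *FOS* (chr14:75278578-75278877, + strand) and *JUN* (chr1:58783998-58784297, - strand), GRCh38.p14, are shown as those of raised genes to set beside the histone windows.
FOS: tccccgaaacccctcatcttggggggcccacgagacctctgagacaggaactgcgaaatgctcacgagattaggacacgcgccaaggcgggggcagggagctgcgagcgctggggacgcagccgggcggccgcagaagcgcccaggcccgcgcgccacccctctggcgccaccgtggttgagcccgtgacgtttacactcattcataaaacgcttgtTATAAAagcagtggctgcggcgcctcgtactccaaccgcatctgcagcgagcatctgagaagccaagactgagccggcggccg
JUN: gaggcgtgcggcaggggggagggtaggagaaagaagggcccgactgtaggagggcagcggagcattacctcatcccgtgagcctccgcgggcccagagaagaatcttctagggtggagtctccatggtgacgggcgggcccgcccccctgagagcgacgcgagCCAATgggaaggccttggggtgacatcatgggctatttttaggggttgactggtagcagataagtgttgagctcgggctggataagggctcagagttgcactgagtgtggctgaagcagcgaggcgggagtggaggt
The *FOS* window held 1 TATA match and no CCAAT match, and the *JUN* window 1 CCAAT match and no TATA match. Their GC contents were 64.7% and 62.0%.

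*JUN* and *JUNB* changed by different amounts in the pairs. *JUN* (chr1:59246463-59249785, hg19, - strand) rose from 390 to 2025 reads with CPT in the absence of TNFα, and from 1753 to 3608 reads in its presence. The log2 ratio was 2.70 in the first and 0.86 in the second pair. *JUNB* had 2149 and 3811 reads without TNFα and 5298 and 5881 reads with TNFα, which are log2 ratios of 1.15 and -0.03. The other members fell, *FOSL1* by 1.35 ± 0.083, *FOSL2* by 1.31 ± 0.10 and *JUND* by 0.57 ± 0.074 on the log2 scale. In the interaction test over 6 WT libraries that is described with the NF-kB targets, the CPT by TNFα term was -1.99 ± 0.085 for *JUN* and -1.16 ± 0.065 for *JUNB* on the log2 scale. *FOS*, *FOSB* and *JUN* were thus higher with CPT in both pairs, and *JUNB* in the pair without TNFα.

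Other immediate early genes, which respond to growth factors and stress within minutes, were found in both directions: 14 of 30 were raised, 14 were lowered and 2 were not called. Of these, 2 members passed the filter only through the CPT libraries, *EGR2* among them, and of the other 28, 12 were raised and 14 lowered, with a median of -0.16 in place of 0.09. *SGK1*, a serum- and glucocorticoid-inducible kinase, had 72 and 722 reads in the pair without and 51 and 850 in the pair with TNFα, a log2 fold change of 3.75 ± 0.14. Among the EGR transcription factors, *EGR1* rose from 253 to 563 and from 232 to 700 reads, *EGR2* from 3 to 73 and from 9 to 73 reads, and *EGR3* from 16 to 68 and from 16 to 105 reads. *ARC*, a gene best known from neurons, had a log2 fold change of 2.04 ± 0.11. In contrast, *MCL1*, which encodes a short-lived survival protein of the BCL2 family, fell from 6133 to 1585 and from 4985 to 1762 reads, a log2 fold change of -1.65 ± 0.074. *CSRNP1* fell by 1.84 ± 0.11, the small MAF factor *MAFF* by 1.64 ± 0.10 and *IER3* by 1.09 ± 0.063 on the log2 scale. Immediate early genes were therefore not a uniform group under CPT, with changes of several-fold in either direction.

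Targets of NF-kB, the factor that TNFα activates, differed between the pairs. Of 31 tested targets, 23 were lowered and 2 were raised, but the median log2 ratio was -0.13 in the pair without TNFα and -1.31 in the pair with TNFα. The list consists of genes known to respond to TNFα, some of them reported as such in these cells, so its response is not independent evidence. DESeq2 called 7 of them lowered and none raised. The difference between the pairs was tested over the 6 WT libraries that include the TOP2 inhibitor ICRF193, on the assumption that ICRF193 leaves the TNFα response as it is. The CPT by TNFα term of this fit is the log2 response to TNFα with CPT minus the response pooled over cells without inhibitor and with ICRF193, so it can differ from the difference of the log2 ratios of the 2 pairs. Over all 14226 genes tested, the term was negative for 290 genes (2.04%) and positive for 268 genes (1.88%). Of the 31 NF-kB targets, 24 belonged to the first and none to the second group. For the same term DESeq2 called 21 genes in all, in place of 558, and a fit to all 12 libraries called 140. Without the library that had CPT and TNFα, 13 NF-kB targets were lowered and 5 raised, with a median of -0.08.

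*BIRC3*, an inhibitor of apoptosis, had 83 and 47 reads without TNFα, and 1175 and 75 reads with TNFα. The log2 ratio of CPT over no inhibitor was -0.49 in the first and -4.13 in the second pair. *CXCL8*, the chemokine interleukin-8, had 12 and 15 reads without TNFα and 831 and 104 reads with TNFα. The kinase gene *NUAK2* went from 226 to 48 and from 1478 to 133 reads, and *TNFAIP3*, a ubiquitin-editing inhibitor of NF-kB signalling, from 143 to 53 and from 1357 to 207 reads. All 4 genes were highest in the library with TNFα and no inhibitor. With CPT they were also higher with TNFα than without it, but reached lower levels: *BIRC3* went from 2.70 to 3.76 CPM, *CXCL8* from 0.862 to 5.21 CPM, *NUAK2* from 2.76 to 6.66 CPM and *TNFAIP3* from 3.04 to 10.4 CPM.

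*NFKBIA*, which encodes the inhibitor IκBα, is shown with its promoter (chr14:35404700-35404999, GRCh38.p14, - strand) because it had the smallest p of the interaction test.
NFKBIA: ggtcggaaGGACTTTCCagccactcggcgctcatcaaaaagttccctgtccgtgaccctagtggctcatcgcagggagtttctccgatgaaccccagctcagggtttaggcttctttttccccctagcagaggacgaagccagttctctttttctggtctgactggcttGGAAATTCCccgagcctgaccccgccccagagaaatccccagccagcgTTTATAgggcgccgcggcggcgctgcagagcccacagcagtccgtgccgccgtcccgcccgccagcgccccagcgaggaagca
Its window held 2 matches to GGANTTTCC and 1 TATA match. Of 27 NF-kB targets with an entry, 11 (40.7%) held GGANTTTCC, beside 1.64% of all promoter windows. *NFKBIA* had 1385 and 1285 reads in the pair without TNFα, and 10789 and 2738 reads in the pair with TNFα. The log2 ratios of the pairs were 0.22 and -2.16, and the CPT by TNFα term was -2.29 ± 0.078. Without the library that had CPT and TNFα, its CPT log2 fold change was 0.16 in place of -1.07.

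*NFKBIZ* and *ZC3H12A*, both on the list of NF-kB targets, had opposite log2 ratios in the pairs and were called raised by the joint fit. *NFKBIZ* had 128 and 422 reads without and 770 and 695 reads with TNFα, that is log2 ratios of 2.04 and -0.33. *ZC3H12A* had log2 ratios of 0.87 and -0.11. Their calls rested on the pair without TNFα, and without its CPT library the log2 fold changes were -0.31 for *NFKBIZ* and -0.06 for *ZC3H12A*.

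**Figure D3:**
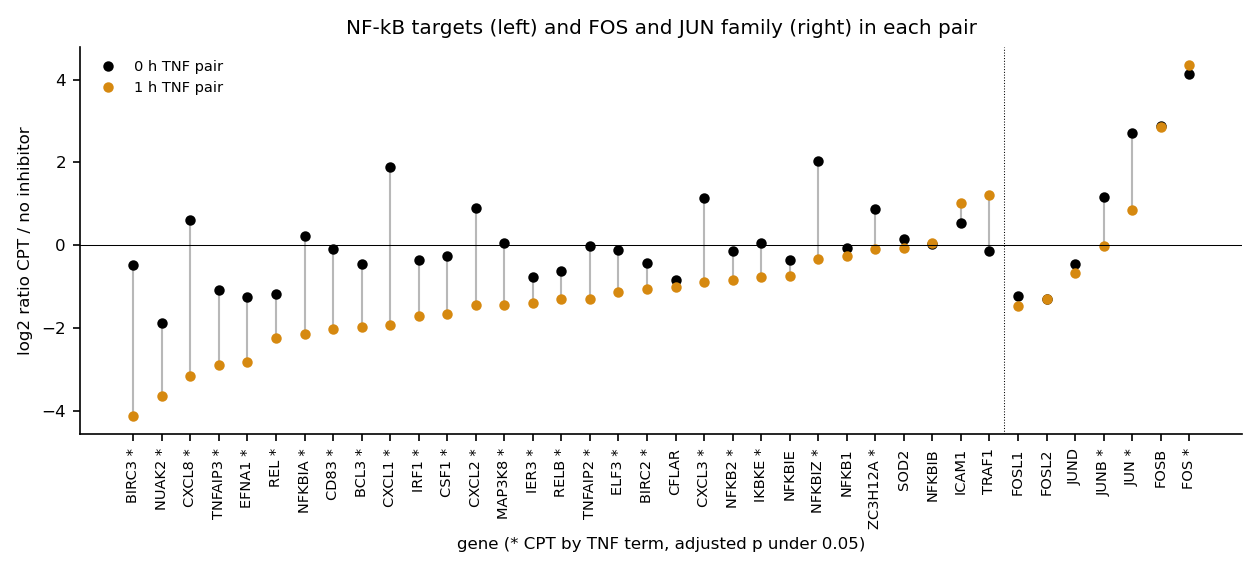
Log2 ratio of normalised counts (CPT over no inhibitor, y axis) of the 31 tested NF-kB targets and the 7 *FOS* and *JUN* family genes, black for the pair without and orange for the pair with 1 h TNFα. Asterisks mark genes with a CPT by TNFα term past the test, and for *BIRC3*, *CXCL8* and *NFKBIA* the orange points (-4.13, -3.17 and -2.16) lie far below the black ones.

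Genes with a positive term numbered 268. Of the 267 that could be compared in both fits, the median log2 ratio was -0.23 in the pair without and 0.11 in the pair with TNFα, and they had a median of 15 exons, beside 9 over all genes. Examples are *FASN*, the fatty acid synthase, with log2 ratios of -0.30 and 0.33, and *ID1*, an inhibitor of differentiation factors, with -0.53 and 0.28. Without inhibitor the median TNFα response of the genes with a positive term was -0.17 on the log2 scale, with ICRF193 -0.11 and with CPT 0.16. These genes were selected by this difference in the same libraries. The order of the TNFα responses and of the pair ratios was therefore largely set by the selection. The pair with TNFα may differ in CPT exposure as well as in TNFα, and these cannot be told apart.

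Genes of the respiratory chain and the ribosome were raised by small amounts. Of 76 tested nuclear genes of the respiratory chain, 53 were raised and none was lowered, with a median log2 fold change of 0.22. Of 81 tested cytosolic ribosomal protein genes, 48 were raised and none was lowered, with a median of 0.17. Of the proteasome genes 10 of 31 (32.3%) were raised with a median of 0.11, and of the aminoacyl-tRNA synthetase genes 4 of 20 (20.0%) with a median of 0.09, the latter share being near the 17.3% of all genes tested. Neither list had a lowered member. *UQCRB*, a subunit of complex III, rose from 154 to 210.5 CPM without and from 171 to 220.0 CPM with TNFα. *RPL34*, a protein of the large ribosomal subunit, rose from 190 to 257.5 and from 215 to 244 CPM. DESeq2 called 20 genes of the respiratory chain, 20 of the ribosomal proteins, 2 of the proteasome and 1 of the synthetases raised. Without the library that had neither inhibitor nor TNFα, 30, 24, 1 and 0 genes of these lists were raised, in the same order. No list median moved by more than 0.05 with total counts in place of TMM factors.

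Of 18 glycolytic genes, 5 (27.8%) were raised and 2 (11.1%) lowered with a median of 0.13. Over all genes tested, 17.3% were raised and 24.1% lowered. *GAPDH* had a log2 fold change of 0.15 ± 0.048. The glucose transporter *SLC2A1* and the hexokinase *HK2* were lowered, by 0.38 ± 0.070 and 0.31 ± 0.076. Of 20 genes of cholesterol synthesis and its control, 2 were raised and 5 were lowered with a median of 0.03.

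Targets of p53, which DNA breaks activate and which HCT116 cells carry in wild-type form, had a median close to that of all genes. Of 31 tested targets, 6 (19.4%) were raised, 7 (22.6%) were lowered and 18 were not called, with a median log2 fold change of 0.04. The shares were near the 17.3% raised and 24.1% lowered of all genes tested. These counts depended on single libraries and on the test: 12 were raised and 10 lowered without the library with CPT and TNFα, 5 raised and 11 lowered without that with CPT alone, 4 raised and 7 lowered without that with TNFα alone, 4 raised and 8 lowered without that with neither, and 2 raised and 6 lowered in DESeq2. *CDKN1A*, the cell cycle inhibitor p21, had 3994 and 2925 reads in the pair without and 3354 and 3781 in the pair with TNFα, a log2 fold change of -0.07 ± 0.071 (edgeR adjusted p = 0.49). *MDM2*, the ubiquitin ligase of p53, fell by 0.54 ± 0.069, the nuclease gene *AEN* by 1.87 ± 0.077 and the kinase gene *PLK2* by 1.36 ± 0.067. Raised targets changed less, such as *FDXR*, the ferredoxin reductase, with 0.37 ± 0.075 and *TP53I3*, a quinone oxidoreductase, with 0.47 ± 0.12.

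Other stress programmes gave small medians and calls in both directions. For the integrated stress response, 5 of 15 genes were raised and 9 were lowered with a median of -0.34. The transcription factor gene *XBP1* of the unfolded protein response changed by -1.001 ± 0.079, the glutathione-degrading enzyme gene *CHAC1* by -1.55 ± 0.15 and the factor *ATF3* by -0.77 ± 0.090. For heat shock genes, 6 of 20 were raised and 4 lowered with a median of 0.11, *HSP90AA1*, a cytosolic chaperone, rising by 0.28 ± 0.050 and the co-chaperone *DNAJB1* falling by 0.73 ± 0.072 on the log2 scale. Of 15 targets of the antioxidant factor NRF2, 3 (20.0%) were raised and 7 (46.7%) lowered with a median of -0.12. The gene of the factor itself, *NFE2L2*, fell by 0.69 ± 0.075.

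Of 18 tested interferon-stimulated genes, 3 (16.7%) were raised and 6 (33.3%) were lowered, beside 17.3% and 24.1% of all genes tested. Their median was 0.03, or -0.01 without the member that passed the filter only through the CPT libraries. *IRF7*, a transcription factor of the interferon response, rose from 182 to 304 and from 132 to 433 reads. *IFIT3* fell from 102 to 46 and from 102 to 54 reads. Among 6 targets of the aryl hydrocarbon receptor, 1 was raised and 3 were lowered, with a median of -0.35. Notch pathway and HES genes had 7 of 14 members raised and 4 lowered, with a median of 0.37. *HES1*, the Notch-responsive repressor, rose from 24.0 to 50.8 CPM without and from 21.1 to 52.99 CPM with TNFα, the ligand *DLL4* had a log2 fold change of 1.29 ± 0.17, and the receptor *NOTCH1* fell by 0.69 ± 0.078.

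Cell cycle and repair lists had small medians. Of 52 genes of DNA replication and the G1/S transition, 7 were raised and 15 lowered (28.8%, near the 24.1% of all genes tested) with a median of -0.01, beside -3.87 for the replication histones. *E2F2*, an E2F transcription factor, fell by 1.19 ± 0.085, and *CDC25A*, the phosphatase of S phase CDKs, by 1.02 ± 0.076. Of 38 mitotic genes, 1 was raised and 18 lowered (47.4%) with a median of -0.16. *CCNF*, which encodes cyclin F, fell by 1.099 ± 0.075, from 170 to 76.6 CPM without and from 163 to 78.7 CPM with TNFα. Of 34 genes of recombination, the Fanconi pathway and the checkpoint, 1 was raised and 11 lowered (32.4%) with a median of -0.14. Without the library with CPT alone 18 of these were lowered, and in DESeq2 7. *BARD1*, the partner of BRCA1, fell by 1.05 ± 0.099, the homologous recombination gene *XRCC2* by 0.95 ± 0.10, and *PALB2*, which links BRCA1 to BRCA2, by 0.69 ± 0.098.

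The target of the compound itself was not called. *TOP1* transcripts were at 151, 152, 154 and 151 CPM in the cells without inhibitor or TNFα, with CPT, with TNFα, and with both, a log2 fold change of -0.01 ± 0.072. Of 7 topoisomerase and tyrosyl-DNA phosphodiesterase genes, 3 were lowered and none was raised, with a median of -0.15. These were *TOP2A* with -0.29 ± 0.064, *TOP3A* with -0.43 ± 0.085 and *TOP3B* with -0.45 ± 0.094. *TDP1*, which removes trapped TOP1 from DNA, was not called, with -0.15 ± 0.088.

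Genes of the transcription and splicing machinery had small medians. Of 44 genes of P-TEFb, elongation factors and RNA polymerase II, 7 (15.9%) were raised and 14 (31.8%) were lowered with a median of -0.07. Over all genes tested, 17.3% were raised and 24.1% lowered. The elongation factor gene *ELL* fell from 48.6 to 12.9 CPM without and from 42.9 to 12.6 CPM with TNFα. *MEPCE*, which caps the 7SK RNA that holds P-TEFb inactive, fell by 1.005 ± 0.077, and *HEXIM1*, the inhibitor of P-TEFb in that complex, rose by 0.52 ± 0.077 on the log2 scale. Of 18 SR splicing factors and CLK kinases, 5 (27.8%) were lowered and 1 (5.56%) was raised, with a median of -0.07. *CLK1*, a kinase of SR proteins, fell from 1711 to 434 and from 1468 to 491 reads, and *CLK4* fell by 1.121 ± 0.12. The raised gene, *SRSF12*, had no read without inhibitor and 10 and 14 reads with CPT, and passed the filter only through the latter.

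**Figure D4:**
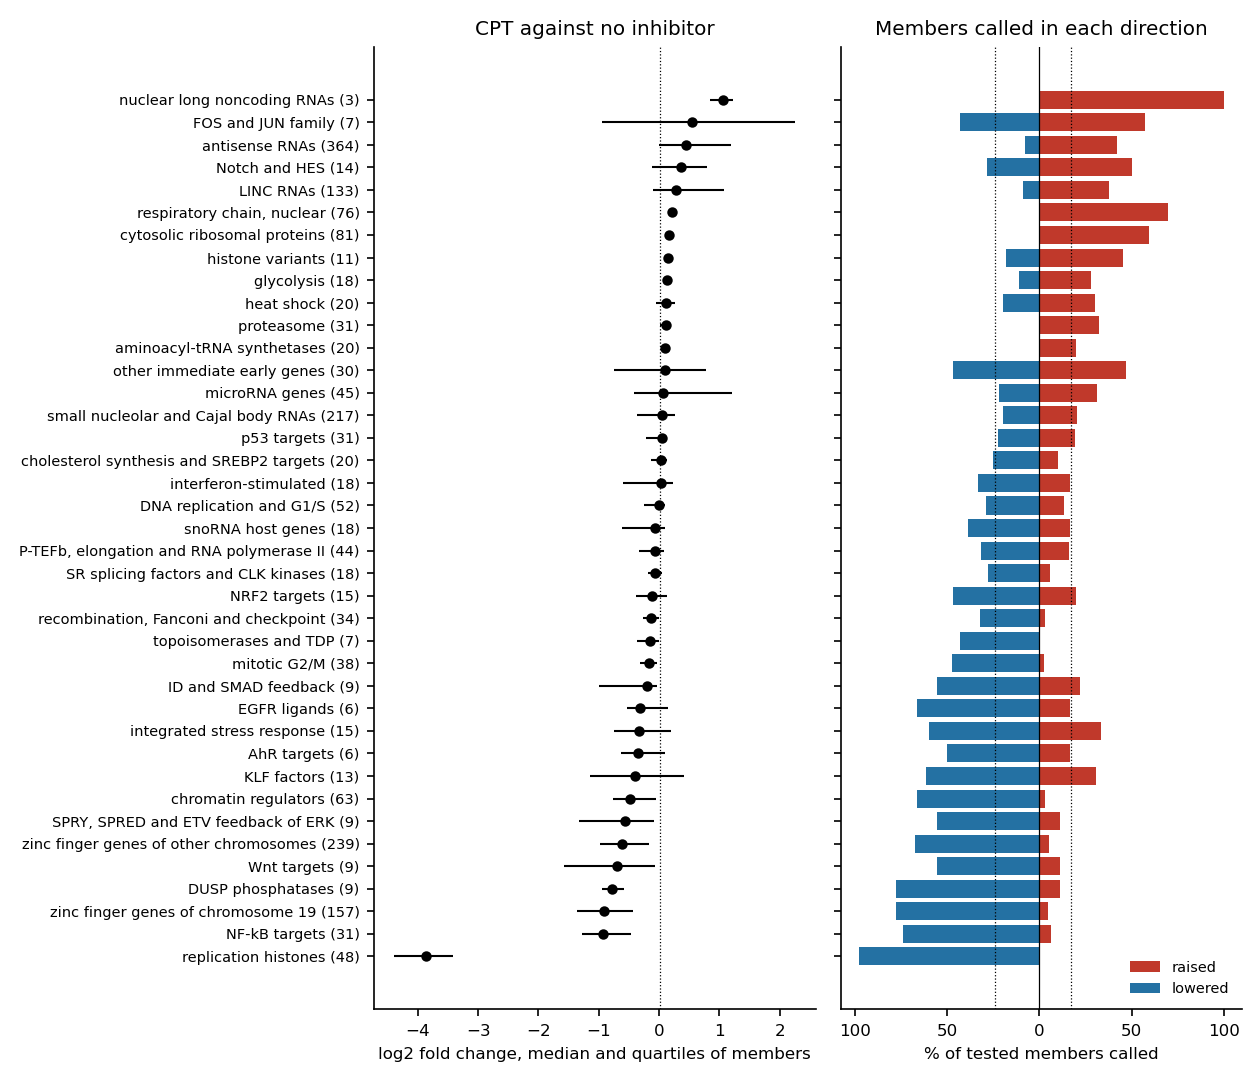
Left, median CPT log2 fold change of the tested members of each gene list (points) with its quartiles (lines). Right, percent of tested members lowered (to the left) and raised (to the right), with dotted lines at the shares over all genes, 24.1% and 17.3%. Replication histones have a median of -3.87, NF-kB targets of -0.93 and zinc finger genes of chromosome 19 of -0.92, while the respiratory chain (0.22) and antisense RNAs (0.44) lie above 0.

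Many noncoding RNAs had higher values with CPT. Of 999 symbols named as antisense to another gene, 364 were tested, 152 (41.8%) were raised, 29 were lowered and 80 were more than 2-fold higher in both pairs, with a median log2 fold change of 0.44. Of 878 LINC RNAs, 133 were tested, 50 were raised and 12 lowered with a median of 0.28. Of the antisense RNAs, 43 had passed the filter only through the CPT libraries and 8 only through those without inhibitor. Of the remaining 313, 119 (38.0%) were raised and 23 lowered with a median of 0.37. Of all genes that reached the cutoff in both states of the inhibitor, 15.4% were raised and 24.4% lowered. Of the 117 LINC RNAs that remained in the same way, 38 (32.5%) were raised and 11 lowered. DESeq2 called 45 antisense and 20 LINC RNAs raised. *SMC2-AS1* had 2 and 81 reads without and 1 and 89 reads with TNFα, which summed to 59.8-fold more reads per library size with CPT (95% Clopper-Pearson interval 20.1 to 293, counting error only). This antisense gene passed the filter only through the CPT libraries and so had to be higher with CPT. Its partner *SMC2*, a condensin subunit, was not called, with a log2 fold change of 0.01 ± 0.075.

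For 337 antisense genes the partner was tested as well. Of the 144 raised antisense genes among these, the partner was raised for 19, not called for 74 and lowered for 51, and the partners' median log2 fold change was -0.06, beside 1.4 for the antisense genes. Of 27 lowered antisense genes, none had a raised partner, 13 had a partner that was not called and 14 had a lowered one, such as *EGFR-AS1* with a log2 fold change of -4.02 ± 0.62 and *EGFR*, the receptor gene, with -0.38. For comparison, the 166 antisense genes that were not called had 21 raised, 106 not called and 39 lowered partners. The median over the partners of all 337 was -0.04. The raised and lowered antisense genes counted here include some that passed the filter only through a single state of the inhibitor. The direction of these was fixed by the filter. Whether antisense genes and their partners changed together was not tested. The reads were counted without regard to strand, so reads of an antisense gene and of its partner cannot be told apart where their exons overlap.

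The genes raised most were nearly silent without inhibitor. *LOC100130075* had 0 and 48 reads in the pair without and 1 and 85 reads in the pair with TNFα, a ratio of 140 with an interval from 24.8 to 5590. The fucosyltransferase gene *FUT6* had 2 and 93 and 3 and 92 reads, a ratio of 39.1 (16.4 to 122). *C19orf35* had 4 and 89 and 4 and 124 reads, a ratio of 28.1 (14 to 65.9). *COL2A1*, a collagen of cartilage, had 1 and 44 and 2 and 39 reads, and *LRRC25*, *XIRP1* and *GPR61* were similar, with at most 2 reads in any library without inhibitor and 39 to 66 in those with CPT. Even with CPT, each of the 8 genes raised most had at most 6.21 CPM. All 8 passed the filter only through the CPT libraries and so had to be higher with CPT.

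The position of such genes relative to expressed genes was counted. Of 2668 genes with a mean under 3 CPM, 978 (36.7%) lay within 10 kb downstream of, within 1 kb divergent from, or on the opposite strand over a neighbour with a mean of at least 10 CPM. Of the 470 that were over 2-fold higher in both pairs, 221 (47.0%) did, whereas of 261 lowered genes 83 (31.8%) did. Most of the 470 had passed the filter only through the CPT libraries. Among the 2147 genes that reached the cutoff in both states of the inhibitor, 762 (35.5%) had such a neighbour. So did 96 of 173 (55.5%) that were over 2-fold higher and 50 of 176 (28.4%) that were lowered. Divergent neighbours were found for 13.4% of these 2147 genes, 29.5% of the over 2-fold higher and 4.55% of the lowered ones. Whether the reads came from transcripts of the neighbours was not tested.

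Among well expressed noncoding genes, the 3 nuclear long noncoding RNAs all rose. *MALAT1* went from 1645 to 2410 CPM without and from 1412 to 2313 CPM with TNFα, *NEAT1*, the scaffold of paraspeckles, had a log2 fold change of 1.06 ± 0.077, and *KCNQ1OT1*, an imprinted antisense transcript, of 1.39 ± 0.084. *RPPH1*, the RNA subunit of RNase P and the most heavily counted of the named genes, rose from 263309 to 278144 and from 205494 to 335832 reads, a log2 fold change of 0.47 ± 0.040. A group of 4 linked records rose together: *MIR663AHG* from 14379 to 76550 and from 11505 to 90968 reads, *ANKRD30BL* from 12994 to 67657 and from 9000 to 85388 reads, *LINC00273* from 398 to 3880 and from 321 to 4814 reads, and *MIR663A* with a log2 fold change of 2.90 ± 0.075. Together they took 1314 and 9095 CPM of raw reads in the pair without and 1217 and 9591 in the pair with TNFα.

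These 4 records are uncertain as genes. *MIR663A* (chr20:26188822-26188914, hg19, - strand) lies inside *MIR663AHG* (chr20:26167655-26189869, - strand), and *ANKRD30BL* and *MIR663AHG* shared an exact stretch of 49 bases in the GENCODE transcripts of GRCh38, *LINC00273* and *MIR663AHG* one of 25 bases. Reads of other near-identical copies in the genome can be placed on them. Their origin was not tested.

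Small RNAs that are cut from introns were called at shares near those of all genes tested, 17.3% raised and 24.1% lowered. Of 217 tested small nucleolar and Cajal body RNAs, 44 (20.3%) were raised and 43 (19.8%) lowered with a median of 0.04. This balance turned with single libraries and the test: 26 were raised and 39 lowered without the library with TNFα alone, 39 raised and 27 lowered without that with neither, and 8 raised and 15 lowered in DESeq2. Of 18 snoRNA host genes 3 were raised and 7 lowered with a median of -0.06. The host genes *GAS5* and *SNHG3* fell by 0.97 ± 0.076 and 1.01 ± 0.079. Reads of unspliced host transcripts over such a record are counted with it. *SNORD95* rose from 98 to 228 and from 84 to 272 reads, while *SNORA75* fell from 269 to 53 and from 204 to 54 reads. Of 1902 microRNA symbols, host genes included, 45 were tested, 14 were raised and 10 lowered with a median of 0.07. Of these, 8 passed the filter only through the CPT libraries and 2 only through those without inhibitor, and of the other 35, 6 (17.1%) were raised and 9 lowered with a median of -0.16. *MIRLET7BHG*, a host of let-7 microRNAs, fell from 351 to 52 and from 216 to 63 reads. A total RNA library of this kind does not recover mature microRNAs, so these counts are of longer transcripts.

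Gene length, exon number and level were compared over all genes tested. Among 2009 genes with a genomic span under 5 kb, 765 (38.1%) were raised and 307 (15.3%) lowered. The raised share decreased with each longer class, to 23.6% at 5 to 20 kb, 11.2% at 20 to 50 kb and 7.75% at 50 to 100 kb, and it was 1.59% among the 189 genes of 400 kb or more. The lowered share rose from 15.3% to 26.9% at 20 to 50 kb and then stayed between 28.8% and 30.9%. Of the 1813 genes under 5 kb that reached the cutoff of the filter in both states of the inhibitor, 632 (34.9%) were raised and 273 lowered. The median span was 9309 bases for raised, 33276 for lowered and 25196 for all genes. Long genes were thus rarely raised, whereas their lowered share was about the same from 50 kb onwards. The median log2 fold change still fell, from -0.05 at 50 to 100 kb to -0.15 at 400 kb or more. Between these classes the median level fell as well, from 32.0 to 9.0 CPM.

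Within genes of similar level, long genes were again rarely raised. At 10 to 100 CPM, 30.7% of genes under 5 kb and 1.73% of those of 200 kb or more were raised, while 20.1% and 35.8% were lowered. At 100 CPM or more, 123 of 263 short genes (46.8%) and 0 of 62 genes of 200 kb or more were raised. The lowered share at this level was 18.6% under 5 kb, 25.1% at 50 to 100 kb and 30.6% at 200 kb or more. The replication histones, all short and without introns, were among the lowered short genes, and without them 39.0% of genes under 5 kb were raised and 13.4% lowered. Without the library that had neither inhibitor nor TNFα, 575 genes under 5 kb were raised and 245 lowered.

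Exon number and level gave related pictures. Of genes with 1 exon, 32.4% were raised, and of genes with 20 or more exons, 6.59%. The lowered share was between 22.4% and 27.0% in all 5 exon classes. By level, the raised share was 11.8% at 10 to 30 CPM and 25.7% at 300 CPM or more. Under 1 CPM it was 29.1%, but 8.32% of the 697 genes that reached the cutoff of the filter in both states of the inhibitor. The lowered share was highest at 30 to 100 CPM, with 31.7%, and 13.5% at 300 CPM or more. Exonic length had a median of 2202 bases among raised, 4021 among lowered and 3106 among all genes.

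**Figure D5:**
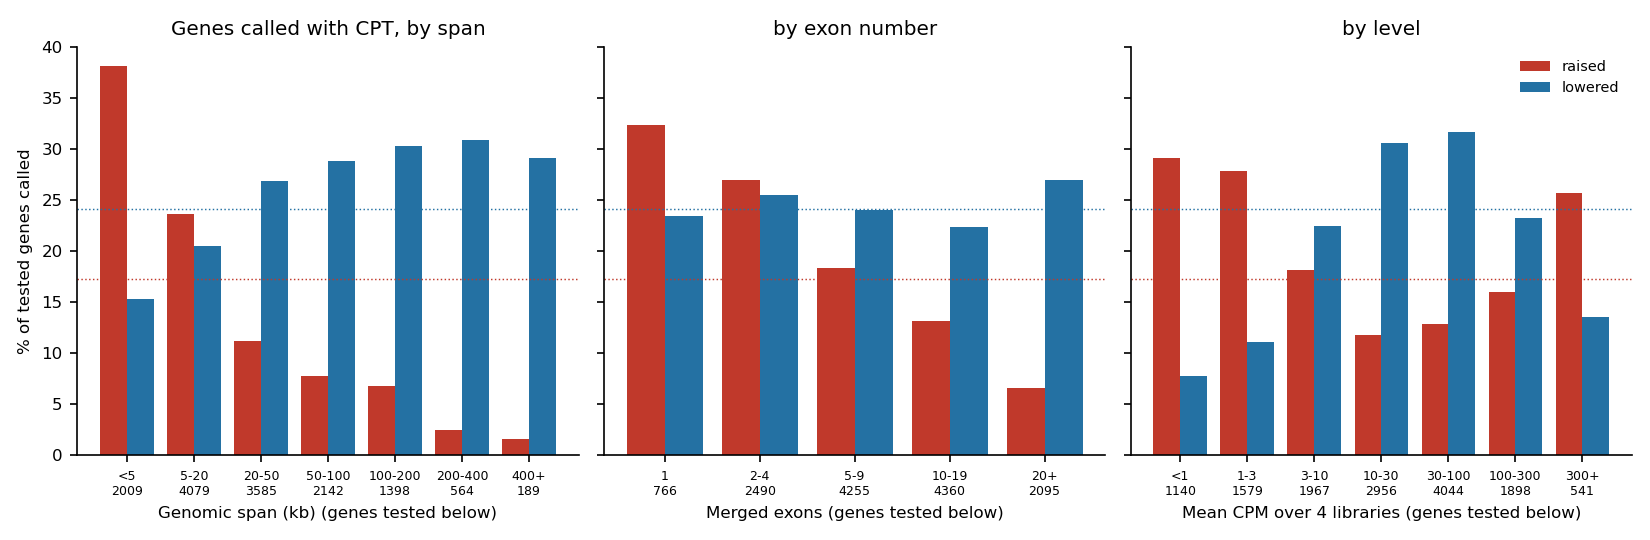
Percent of tested genes raised (red bars) and lowered (blue bars) by CPT in classes of genomic span in kb, exon number and mean CPM, with dotted lines at the shares over all genes. The raised share falls from 38.1% under 5 kb to 1.59% at 400 kb or more, and the lowered share stays between 28.8% and 30.9% from 50 kb onwards.

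The longest genes called in each direction are given here. *PDE4D*, a cAMP phosphodiesterase spanning 1519060 bases, fell from 31 to 6 and from 27 to 10 reads. It passed the filter only through the libraries without inhibitor and so had to be lower with CPT. *CAMTA1*, a transcription activator of 984383 bases, fell by 0.33 ± 0.11 on the log2 scale, with a log2 ratio of -0.12 in the pair without and -0.53 in the pair with TNFα. *DLG2*, a synaptic scaffold gene of 2172259 bases, was raised from 5 to 14 and from 6 to 14 reads, and *CDH23*, a cadherin gene, from 5 to 17 and from 4 to 25 reads. Both passed the filter only through the CPT libraries and so had to be higher with CPT. Of the 182 genes of 400 kb or more that reached the cutoff in both states of the inhibitor, 1 was raised and 52 were lowered. Counts of this size on long genes cannot show where along the gene the reads lay.

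To see which changes were shared with a TOP2 inhibitor in the same cells, CPT was compared with ICRF193, which locks TOP2 as a closed clamp and was used at 5 µM as well. Of 14226 genes tested over the 6 WT libraries, 2731 (19.2%) were higher and 3549 (24.9%) lower with CPT than with ICRF193. Of the 2439 genes raised by CPT, 2020 were higher with CPT than with ICRF193, and of 3406 lowered genes that could be compared, 3091 were lower. All values rest on the same 2 CPT libraries as the calls above and share them. Among genes over 2-fold changed in both pairs, 570 of 594 were higher and 556 of 567 lower than with ICRF193.

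For most of the named genes the ICRF193 libraries lay near those without inhibitor. Histone genes took 16089 and 15923 CPM of raw reads with ICRF193, and 47 of the 48 tested histone genes were lower with CPT than with ICRF193. *FOS* was at 14.1 and 10.6 CPM with ICRF193, without and with TNFα, beside 167 and 184.5 CPM with CPT. *CXCL8* was at 45.1 CPM with ICRF193 and TNFα, beside 47.2 CPM with TNFα alone and 5.21 CPM with CPT and TNFα. *MYC* was at 677.5 and 763 CPM with ICRF193, below the 888 and 988 CPM without inhibitor, and its difference between CPT and ICRF193 was -2.49 ± 0.048 on the log2 scale.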

How the data were processed

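RNA-seq was performed on total RNA of HCT116 cells with a stranded total RNA kit. The submitters' notes name Trimmomatic, STAR, featureCounts and the build hg19, and the headers of the deposited files name featureCounts 1.5.0 without a strand, multi-mapping or overlap option. The values are counts of reads over the exons of 26364 gene symbols, which the authors deposited unnormalised with 1 file per library. No column belonged to a sample of another series. The labels describe the isolation of RNA with another kit than the methods of the study, and which was used is unclear.

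Groups were taken from the labels. The 4 WT libraries without inhibitor or with CPT were fitted in edgeR 4.0.16 (limma 3.58.1, R 4.3.3) with TMM factors, filterByExpr and the quasi-likelihood test, with TNFα (0 h or 1 h) as a block and Benjamini-Hochberg adjusted p under 0.05. Since no condition was replicated, the 2 pairs stood in for replicates, 1 residual degree of freedom was left, and the estimated prior degrees of freedom were infinite. Hence p-values measure departures from the trended spread of all genes (common dispersion 0.0028) and not the agreement of the pairs for a single gene, and cultures grown on other days may differ more. Fold changes are CPT over no inhibitor, errors are SE of that fit, and ratios within a pair are log2 ratios of TMM-normalised counts plus a pseudocount of 1. The replicate number is 1 in every library, so the pairs were formed by TNFα condition and not by culture. The CPT by TNFα term (the TNFα response with CPT minus that pooled over no inhibitor and ICRF193) and the difference between CPT and ICRF193 were tested on the 6 WT libraries.

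Intervals of ratios with few reads are exact 95% Clopper-Pearson intervals of the summed reads and cover counting error only, as PCR copies were not distinguished. Total reads of 17115637 to 22051046 per library set the precision. Spans, exons and neighbours came from the hg19 coordinates in the count files, 159 genes with several loci being left out of these classes. Promoter windows are those of RefSeq on GRCh38.p14, matched by symbol, and were not combined with hg19 coordinates.

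The comparison, the 39 gene lists and the rule for named genes were chosen with earlier results of these data known. Named genes are list members (for lists of more than 12 tested members those with the largest changes, and members the study names), the genes with the largest fold changes at a mean of at least 20 reads, the largest changes in CPM, the smallest interaction p, and the longest called genes. Partners of antisense genes, *KRT20* and *CDX2* were named after their values were seen. So were members that stood apart from their list (*HIST1H4C*, *HIST4H4*, *HIST1H3E*, *HIST2H2BC*, *MDM2*, *RPL34*, *SNORD95*). The values of some genes that this rule selects are not reported here. No set test was run. Alternatives were DESeq2 1.42.0, other scalings and filters, no block, more libraries and leaving out each library. On simulated counts of 14125 genes for the CPT comparison, at a dispersion of 0.01, the fit recovered 93 of 100 genes changed 2-fold and 100 of 100 changed by 2 on the log2 scale, with 10 false calls. Figures were drawn with matplotlib 3.10.9.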

Additional observations from a re-analysis of the deposited data

Results flagged for a closer look

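The CPT by TNFα term over 6 WT libraries passed the test for 558 genes, and genes among the 6 with the smallest p in each direction are given here. The term is the log2 response to TNFα with CPT minus the response pooled over cells without inhibitor and with ICRF193, with the SE of the fit, and need not equal the difference between the 2 pairs. It was negative for the NF-kB targets *NFKBIA* (-2.29 ± 0.078), *NFKBIZ* (-2.29 ± 0.14) and *TNFAIP2* (-1.26 ± 0.077) and for the AP-1 genes *JUN* (-1.99 ± 0.085) and *JUNB* (-1.16 ± 0.065). *TNFAIP2* had 1678 and 1322 reads in the pair without TNFα, and 3808 and 1753 reads in the pair with TNFα.

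The term was positive and smaller for *ID1* (0.77 ± 0.069), the fatty acid synthase *FASN* (0.49 ± 0.060), the cytoskeletal linker *PLEC* (0.48 ± 0.060), the filamin *FLNC* (0.44 ± 0.064), the pyrimidine synthesis enzyme *CAD* (0.41 ± 0.064) and the integrator subunit *INTS1* (0.38 ± 0.063). *ID1* had 4034 and 2224 reads without TNFα, and 1937 and 2674 reads with TNFα. *PLEC* had 36840 and 18446 reads without and 23656 and 25095 reads with TNFα. For these 6 genes the library without inhibitor or TNFα had the highest normalised level of the cells without inhibitor, and the levels with CPT lay closer to each other in *FASN* (762 and 908 CPM) than those without inhibitor (938 and 724.5 CPM). All of these values rest on single libraries.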

How the results depend on the processing

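Of 282 called named genes, DESeq2 lost 95, total counts in place of TMM factors lost 6, and no alternative of scaling, filter or block turned a direction. Genes raised numbered 2439 and 644 in DESeq2, and 1571 to 2901 when 1 library was left out, the lowest without the library that had neither inhibitor nor TNFα. Genes lowered numbered 3408 and 1864 in DESeq2, and 2778 to 3712 when 1 library was left out. Without the replicate block, that is without the pairing by TNFα condition, 2531 genes were raised and 3470 lowered, and 12 named genes lost their call. Genes over 2-fold higher in both pairs numbered 594, but 1166 without a filter on low counts and 340 at a mean of at least 20 reads, and 752 and 908 in the pairs alone. The 558 genes called by the CPT by TNFα term became 21 in DESeq2 and 140 over all 12 libraries, and the 6280 genes that differed from ICRF193 became 3736 in DESeq2. A few log2 fold changes changed sign. Without the library with CPT and no TNFα and without the library with CPT and TNFα they were, in this order, 0.01 and -0.40 for *CAD*, -0.02 and 1.14 for *JUNB*, -0.31 and 1.98 for *NFKBIZ*, 0.01 and -0.41 for *ID2*, -0.06 and 0.80 for *ZC3H12A*, -2.13 and 0.16 for *NFKBIA*, and -3.16 and 0.25 for *CXCL8*. Without the library with CPT and TNFα the median of the NF-kB list was -0.08 in place of -0.93. The cause of these changes was not tested. Of 30 list and class medians of at least 0.1 in size, 1 changed sign, that of the *FOS* and *JUN* family (-0.02 without the library with CPT and no TNFα).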

Other observations

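Among strongly expressed genes outside the lists, the largest falls in CPM after the histones were those of *PDP1*, a phosphatase subunit that activates pyruvate dehydrogenase, and of *SLC38A2*, a carrier of neutral amino acids. *PDP1* fell from 1723 to 853 CPM without and from 1926 to 799.8 CPM with TNFα, and *SLC38A2* from 1570.0 to 736 and from 1726 to 669.9 CPM. Among the largest rises were those of *TMSB10*, a thymosin that binds actin, with a log2 fold change of 0.28 ± 0.055, and *FTL*, the light chain of ferritin, with 0.25 ± 0.055. Of the epithelial markers, the intestinal transcription factor *CDX2* was lowered with a log2 fold change of -0.88 and *EPCAM*, an adhesion molecule, was raised with 0.16, while the keratins *KRT8*, *KRT18* and *KRT19* were not called.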
